A study of Mus musculus with 32 samples.

Results

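Gene expression in the tibialis anterior muscle of young mice was compared between day 35 and day 7 after injury, with 4 libraries at day 35 and 4 at day 7, 8 of the 32 libraries of the series. Both groups were young C57BL/6J mice that received vehicle and an injury written as BaCl in the labels, which is barium chloride, a salt that kills muscle fibres and leaves the stem cells between them to rebuild the tissue. The rule took the table columns of young vehicle muscle at day 35, numbered 1 to 4, and at day 7, numbered 4 to 7, and libraries are named here by those numbers. Of 54532 genes in the table, 17121 passed the filter on low counts and are described. Beside them stand 4 libraries of uninjured young muscle given vehicle and, for the same change at another age, 4 libraries at each day from old C57BL/6J mice given vehicle and 4 at each day from old mice given BI01, a compound that the series calls a senolytic. The labels give no ages or sexes, do not state how vehicle and BI01 were given, and leave it unsaid whether libraries come from separate animals. The p-values therefore measure only the variation among these libraries, which may be technical. The uninjured columns, marked PBS, carry the 35-day mark in their names and none carries the 7-day mark, so anything else that differs between the day 7 and day 35 sets of libraries cannot be told apart from the day.

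After a chemical injury, fragments of dead fibres are cleared by macrophages while satellite cells, the stem cells under the basement membrane of the fibre, divide, differentiate into myoblasts and fuse. The new fibres first make embryonic and perinatal isoforms of the contractile proteins and later exchange them for adult isoforms. Fibroblast-like cells lay down a provisional matrix during the same period, and the number of immune cells falls as fibres mature. In bulk RNA, fewer cells of a type and less RNA per cell cannot be told apart.

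Total counts were 15458439 to 17798256 per library at day 7 and 15141390 to 24356966 at day 35. Levels are CPM, read counts scaled to a common library total, of libraries scaled with TMM factors, which correct for a few genes that take up much of a library. Those factors were 1.06 to 1.42 at day 7 and 0.77 to 0.86 at day 35. The top 10 genes by count made up 15.7% to 22.7% of the counts at day 7 and 25.4% to 28.5% at day 35, and genes of the mitochondrial genome took 6.00% to 7.91% and 10.1% to 12.1%. Markers of skeletal fibres summed to 71640 to 152056 CPM at day 7 and 186520 to 234695 CPM at day 35, while the markers of cardiac muscle, liver and skin summed to at most 1.80 CPM in any of the 8 libraries. Library 7 of day 7 stood closest to day 35. Its Spearman correlations with the day 35 libraries over all tested genes were 0.899 to 0.910, against a lowest value of 0.840 over all 16 pairs of a day 7 and a day 35 library. The correlations were 0.955 to 0.978 among day 7 libraries and 0.981 to 0.985 among day 35 libraries.

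Day 35 muscle differed from day 7 muscle in 9464 of 17121 genes, which is 55.3% of those tested. The edgeR quasi-likelihood test with Benjamini-Hochberg adjustment placed 4446 genes higher (26%) and 5018 lower (29.3%) at an adjusted p under 0.05. Falls were larger than rises: 3836 genes fell and 2254 rose by over 2-fold, and 681 fell and 92 rose by over 16-fold. Levels of the 4 and 4 libraries did not overlap for 50.4% of genes, 24.6% in the upward and 25.8% in the downward direction. Scaling by library size alone moved the median over all tested genes from a log2 fold change of -0.08 to -0.74 and the share of called genes that were higher from 47.0% to 16.3%, so directions below are relative to TMM scaling and rises smaller than the distance between those medians turn negative under the other. Of the 9464 calls, 8936 were also made in the same direction without library 7 of day 7, and 6700 with scaling by library size alone. Set against uninjured young muscle, day 35 muscle still differed in 2691 genes (15.7%), with 1209 higher (7.06%) and 1482 lower (8.66%). That comparison shares the day 35 libraries with the first. Genes given below with only a log2 fold change and an adjusted p in parentheses, such as the exceptions that complete a small count, were chosen after their values were seen, and genes with their levels were named by rule unless stated.

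**Figure D1:**
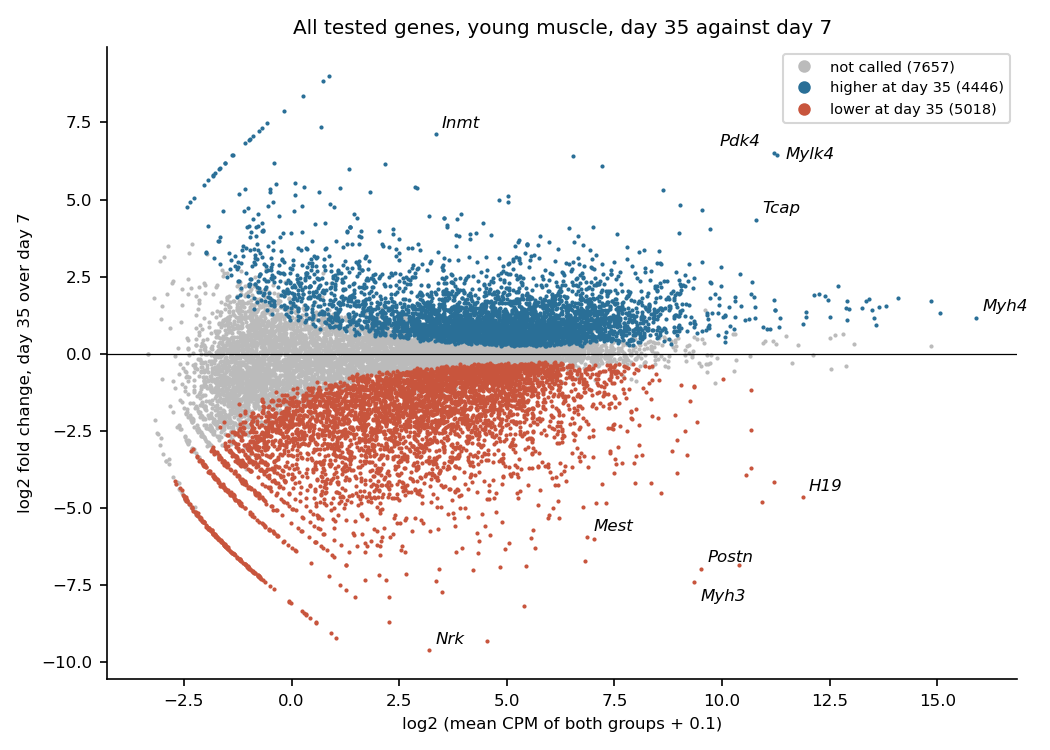
Each point is a tested gene, with the log2 of its mean CPM over both groups (plus 0.1) on the x axis and its log2 fold change at day 35 over day 7 on the y axis. Blue points are the 4446 genes called higher, red points the 5018 called lower and grey points are not called, and the falls reach further from 0 than the rises.

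The largest changes were taken among called protein-coding genes that averaged 5 CPM or more in the higher group and whose libraries did not overlap. Separation of the libraries of these genes was thus a condition of the choice. The largest rise was that of Inmt (ENSMUSG00000003477, chromosome 6, 55170626 to 55175043 in mm10), an enzyme that adds methyl groups to indole amines. Its levels were 0, 0.254, 0.269 and 0 CPM in day 7 libraries 4 to 7 and 25.0, 27.3, 17.0 and 10.7 CPM in day 35 libraries 1 to 4 (log2 fold change 7.13, SE 0.73, adjusted p = 5.17e-09). Uninjured muscle had 11.9 ± 3.53 CPM of Inmt (SD, n = 4). Pdk4 (ENSMUSG00000019577, chromosome 6, 5483351 to 5496309), the kinase that restrains the entry of pyruvate into mitochondria, stood at 35.0, 49.0, 56.8 and 61.4 CPM at day 7 and 6127, 6145, 3209 and 3087 CPM at day 35 (log2 fold change 6.52, SE 0.72, adjusted p = 2.53e-08). Mylk4 (ENSMUSG00000044951, chromosome 13, 32700834 to 32783954), a member of the myosin light chain kinase family, had 46.2, 64.4, 30.5 and 83.9 CPM at day 7 and 3934, 5269, 5919 and 4537 CPM at day 35 (log2 fold change 6.45, SE 0.33, adjusted p = 6.45e-15). Uninjured muscle had 4922 ± 1805 CPM of Pdk4 and 5114 ± 1369 CPM of Mylk4.

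The rest of the 10 largest rises held further enzymes. Chac1, which degrades glutathione, rose from 2.15 ± 1.02 to 184 ± 46.9 CPM (log2 fold change 6.42, SE 1.16, adjusted p = 4.21e-05), and Pfkfb3, which makes the activator of phosphofructokinase, from 19.4 ± 3.48 to 776 ± 280.4 CPM (log2 fold change 5.32, SE 0.43, adjusted p = 4.42e-11). Car4, a membrane carbonic anhydrase, had 0, 0.254, 0.135 and 0.0612 CPM at day 7 and 12.0, 7.87, 6.35 and 8.39 CPM at day 35 (log2 fold change 6.16, or 6.96 without library 5 of day 7). Arrdc2, an arrestin-domain protein, rose by 6.10 on the log2 scale and Klhl38, a kelch protein, by 5.11. Tspan8, a tetraspanin of the cell surface, rose by 4.98, and Depp1, a target of FoxO transcription factors, by 4.93. None of these 10 genes differed from uninjured muscle at an adjusted p under 0.05.

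By the same rule the 10 largest falls included genes of matrix, fibroblasts, macrophages, dividing cells and new fibres. Nrk (ENSMUSG00000052854, chromosome X, 138914430 to 139010532), a kinase of the germinal centre family, had 25.7, 23.8, 10.9 and 11.8 CPM at day 7 and 1 count in all at day 35. Day 7 was 1147-fold (exact 95% interval 205 to 45313) higher, an interval that covers counting error only. Tnn, the matrix protein tenascin-N, also had 1 count at day 35 against 11.1, 19.5, 5.12 and 1.96 CPM at day 7, and day 7 was 617-fold (exact 95% interval 111 to 24416) higher. Fitted values depend on a prior count at such depths, and they moved when a single library was left out: Nrk from -9.61 to -11.41 and Tnn from -8.68 to -10.48 without library 1 of day 35, and Tnn to -8.04 without library 5 of day 7. Stra6l, a retinol transporter, had 1 count at day 35, and day 7 was 347-fold (exact 95% interval 62.1 to 13748) higher. Its fitted value was -7.88, or -9.66 without library 2 of day 35. Cenpe, the kinetochore motor, had 2 counts, with day 7 294-fold (exact 95% interval 81.3 to 2435) higher. Arhgap36, a GTPase-activating protein family member, had 3 counts, with day 7 186-fold (exact 95% interval 63.5 to 905) higher and a fitted value of -7.34, or -8.20 without library 2 of day 35. In each of these 5 genes the day 35 libraries were at or near 0.

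Lrrc15, a surface protein of activated fibroblasts, fell from 72.7, 63.4, 39.0 and 8.75 CPM in the day 7 libraries to 0.129, 0, 0.144 and 0 CPM at day 35 (log2 fold change -9.31, SE 1.18, adjusted p = 2.97e-07). Spp1, the secreted phosphoprotein osteopontin made by macrophages, fell from 112, 142, 56.2 and 23.7 to 0.387, 0.0532, 0.289 and 0.470 CPM (log2 fold change -8.18, SE 1.41, adjusted p = 2.35e-05). In both genes library 7 was the lowest of day 7. Mmp12, macrophage elastase, fell from 43.6, 35.8, 7.68 and 2.02 to 0.194, 0, 0.144 and 0.0784 CPM (log2 fold change -7.73, SE 1.85, adjusted p = 0.000978); its adjusted p was 0.12 with limma voom and 5.49e-08 to 0.12 over all alternatives. Fbn2, a fibrillin of developing tissue, had a log2 fold change of -7.36, or -8.71 without library 4 of day 35.

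**Figure D2:**
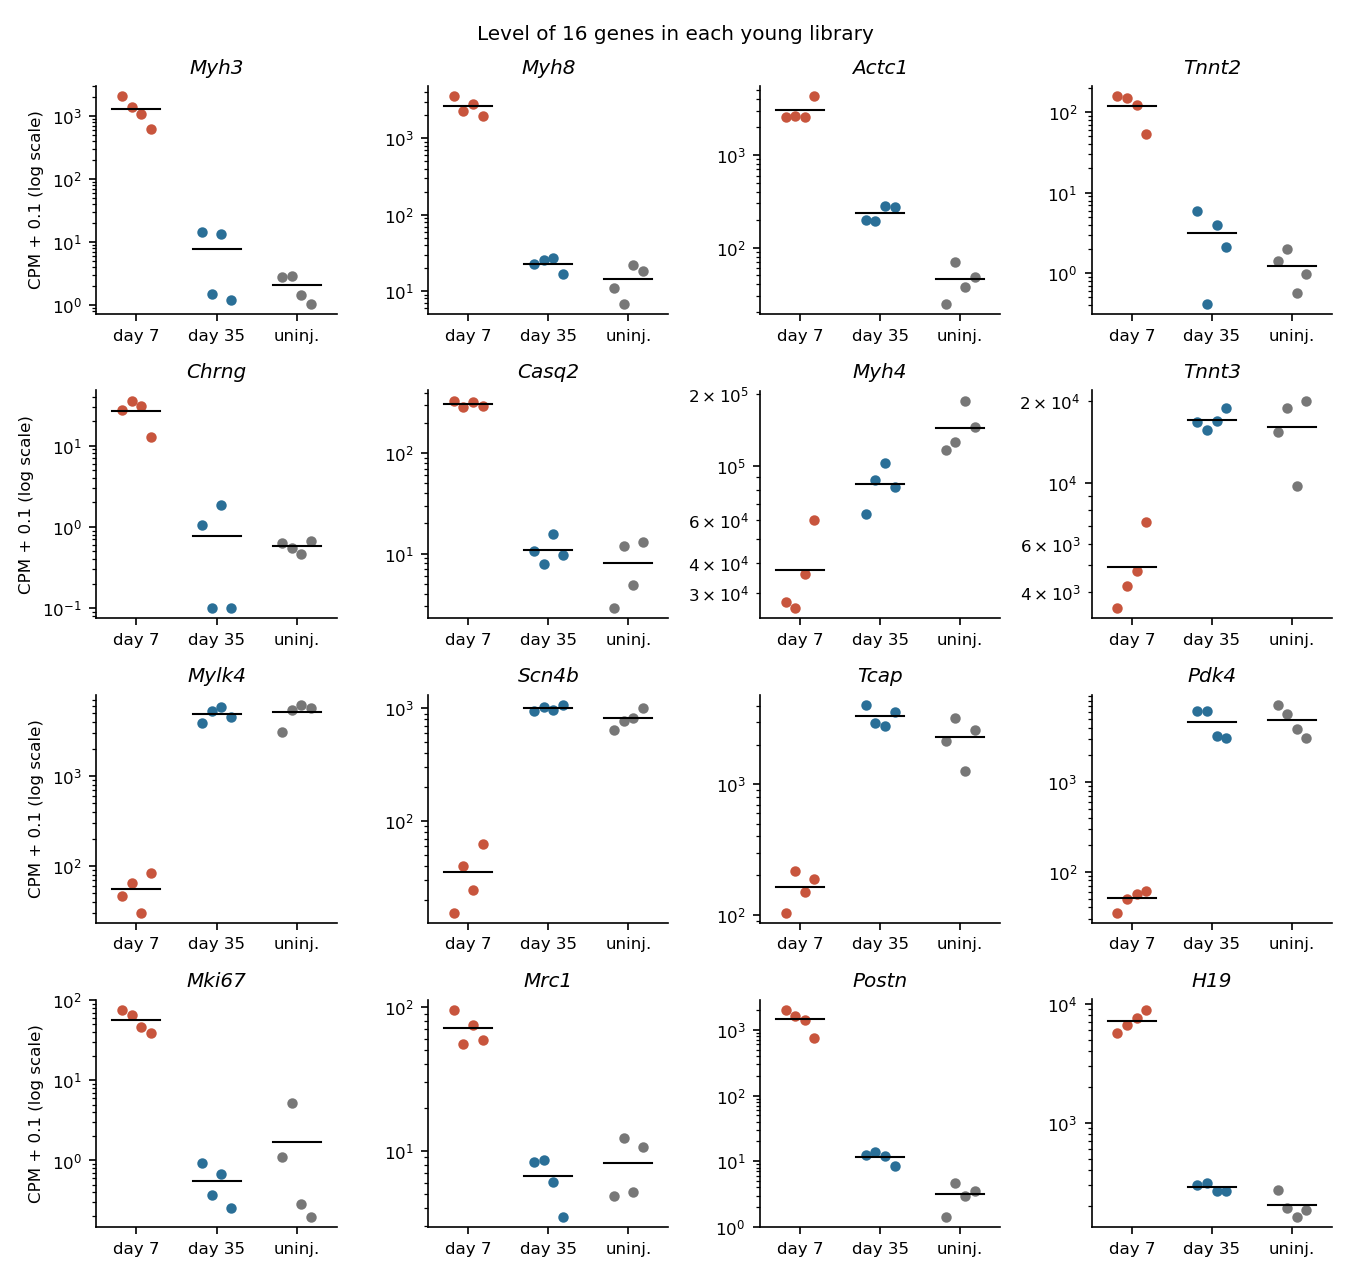
Levels of 16 genes in each young library at day 7, at day 35 and in uninjured muscle, as CPM plus 0.1 on a log axis, with a black bar at the mean of the 4 libraries. Genes of new fibres, dividing cells, macrophages and matrix are high at day 7, and Mylk4, Scn4b, Tcap and Pdk4 are high at day 35 and in uninjured muscle.

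Fibre proteins of the embryonic and perinatal programme fell together. Of 16 listed genes of developing and regenerating fibres, 14 fell and none rose, with a median log2 fold change of -2.82 against -0.08 over all genes tested. Ankrd1 (-0.92, adjusted p = 0.119) and Krt18 (-0.87, adjusted p = 0.391) did not pass the test. Myh3 (ENSMUSG00000020908, chromosome 11, 67078300 to 67102291), the embryonic myosin heavy chain, had 2079, 1387, 1088 and 621 CPM in day 7 libraries 4 to 7 and 14.7, 1.44, 13.3 and 1.10 CPM in day 35 libraries 1 to 4 (log2 fold change -7.41, SE 1.24, adjusted p = 1.64e-05). Uninjured muscle had 1.97 ± 0.944 CPM, near day 35 libraries 2 and 4 and below libraries 1 and 3. Myh8 (ENSMUSG00000055775, chromosome 11, 67277124 to 67308634), the perinatal heavy chain, had 3546, 2268, 2828 and 1949 CPM at day 7 and 22.2, 25.7, 26.8 and 16.5 CPM at day 35 (log2 fold change -6.86, SE 0.72, adjusted p = 1e-08).

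Not all of this group had returned to the level of uninjured muscle. Actc1 (ENSMUSG00000068614, chromosome 2, 114047282 to 114053548), the cardiac actin that new skeletal fibres use, had 2579, 2675, 2603 and 4319 CPM at day 7 and 199, 192, 279 and 272 CPM at day 35 (log2 fold change -3.69, SE 0.43, adjusted p = 2.69e-08), and uninjured muscle had 45.2 ± 19.4 CPM. Every day 35 library was below every day 7 library, and the group was still above uninjured muscle (log2 fold change 2.38, SE 0.41, adjusted p = 0.000171). Csrp3, a LIM protein of the Z-disc, was also higher than in uninjured muscle (3.29, adjusted p = 0.0419), while Cdh15, the muscle cadherin (-1.42, adjusted p = 0.000112), and Xirp1, an actin-binding repeat protein (-1.20, adjusted p = 0.0171), were lower. Ncam1, the neural cell adhesion molecule that marks new and denervated fibres, fell from 132 ± 28.3 to 6.94 ± 0.724 CPM (log2 fold change -4.25, SE 0.45, adjusted p = 1.49e-08). Acta2, an actin shared by new fibres, smooth muscle and activated fibroblasts, fell from 191 ± 67.5 to 17.1 ± 4.67 CPM (log2 fold change -3.48, SE 0.42, adjusted p = 9.25e-08).

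Adult fast isoforms rose less than the developmental ones fell. Of 18 fast contractile genes, 10 rose and 1 fell, with a median of 1.30, or 0.68 with library size alone. The gene that fell was Myh2, the type IIA heavy chain (-2.74, adjusted p = 0.0195). Mylk2, the kinase of the regulatory light chain, rose from 251 ± 81.9 to 1763 ± 208 CPM (log2 fold change 2.81, SE 0.40, adjusted p = 9.42e-07). Tnnt3, fast troponin T, had 3489.8, 4202, 4781 and 7186 CPM at day 7 and 16760.2, 15629.5, 16931 and 18858 CPM at day 35 (log2 fold change 1.79, SE 0.35, adjusted p = 8.22e-05). Tnni2, fast troponin I, rose by 1.87 and Myoz1, a calsarcin of fast Z-discs, by 1.83 on the log2 scale.

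The abundant adult myosins and skeletal actin had smaller differences. Myh4 (ENSMUSG00000057003, chromosome 11, 67238029 to 67260446), the type IIB heavy chain, had 27550.4, 25945, 35944 and 60265 CPM at day 7 and 63802, 87951, 102810.0 and 82545 CPM at day 35, with uninjured muscle at 144022 ± 30866 CPM (log2 fold change 1.17, SE 0.43, adjusted p = 0.0204). Its groups did not overlap, but the call was lost with library size alone (log2 fold change 0.56, adjusted p = 0.18) and without library 3 of day 35, library 4 of day 7 or library 5 of day 7, where adjusted p was 0.0526, 0.0618 and 0.0652 and the range over all alternatives was 0.00585 to 0.18. Myh1, the type IIX heavy chain, had 7191, 5096, 9396 and 12454 CPM at day 7 and 9363, 10882, 3792 and 1952 CPM at day 35, and the groups overlapped (log2 fold change -0.39, SE 0.56, adjusted p = 0.567). Reads of Myh1 cannot be told apart by strand from those of the antisense transcript Myhas, since the sources used here give no strandedness. Acta1, skeletal actin, did not pass the test (log2 fold change 0.24, SE 0.31, adjusted p = 0.516), and its value was -0.37 with library size alone.

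Slow-fibre genes also fell in this muscle, which consists mostly of fast fibres. Of 12 listed genes, 9 fell and 1 rose, with a median of -4.90, or -4.76 with the 2 genes of 3 or fewer counts in a group set at a floor of 3 counts. Casq2, the slow and cardiac calsequestrin, had 331, 285, 319.6 and 292 CPM at day 7 and 10.7, 7.76, 15.5 and 9.56 CPM at day 35 (log2 fold change -4.82, SE 0.48, adjusted p = 3.72e-09). On the log2 scale Tpm3, slow tropomyosin, fell by 2.40 and Atp2a2, the slow calcium pump, fell by 2.28. Myoz2, the slow calsarcin, fell from 44.9 ± 1.496 to 1.69 ± 1.27 CPM. The 1 higher gene was Myl3, a ventricular and slow light chain (2.12, adjusted p = 0.0471). The day 7 and day 35 libraries of Myl3 overlapped, and its call was lost with library size alone (adjusted p = 0.168), with DESeq2 size factors, with limma voom, with no filter on low counts and without library 1 of day 35 or library 4, 6 or 7 of day 7 (range 0.0249 to 0.49). It was above uninjured muscle at day 35 (5.53, adjusted p = 0.00646).

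Shares of one isoform among its family show the exchange within each library and do not depend on scaling. They were computed from counts per kilobase of the gene length in the table and tested with an exact two-sided permutation test over the 4 and 4 libraries, whose smallest possible p is 0.0286. All 12 shares reached that p, which is also 0.0286 after adjustment over the 12, and no share overlapped between the days. The shares were chosen after the data were seen. Genes with close copies in the genome may share reads, which bears on the actins, the myosins and Eef1a1.

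Embryonic myosin made up 5.38%, 4.13%, 2.28% and 0.837% of sarcomeric myosin heavy chain in day 7 libraries 4 to 7 and 0.0200%, 0.00145%, 0.0124% and 0.00129% in day 35 libraries 1 to 4. Perinatal myosin made up 4.72%, 3.47%, 3.05% and 1.35% at day 7 and 0.0156%, 0.0133%, 0.0129% and 0.0100% at day 35. Library 7 held the least of both among the day 7 libraries. Type IIB myosin rose from 71.8%, 77.7%, 75.8% and 81.8% to 87.7%, 89.5%, 96.6% and 97.8%, while type IIX fell from 17.8%, 14.5%, 18.8% and 16.001% to 12.2%, 10.5%, 3.37% and 2.19%. At day 35, libraries 3 and 4 lay within the uninjured range of type IIB (95.3% to 98.0%), and libraries 1 and 2 lay below it. Type IIA was under 1% throughout, at 0.296%, 0.218%, 0.107% and 0.0419% at day 7 and 0.0285%, 0.00912%, 0.00663% and 0.00368% at day 35.

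Cardiac actin was 11.2%, 10.9%, 7.89% and 9.46% of both sarcomeric actins at day 7 and 0.582%, 0.567%, 0.743% and 0.897% at day 35, above the 0.0684% to 0.154% of uninjured muscle in every library. The share of Tnnt2, the cardiac and embryonic troponin T, in the sum with Tnnt3 fell from 0.913%, 0.722%, 0.520% and 0.151% to 0.00708%, 0.000417%, 0.00470% and 0.00221%. In these pairs the day 35 libraries were low without exception.

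Proteins of all cells that also have a muscle isoform showed lower shares of the common form. Eef1a1, the elongation factor of most cells, was 84.2%, 76.4%, 71.6% and 55.2% of its sum with the muscle and neuron form Eef1a2 at day 7 and 20.1%, 22.7%, 21.7% and 17.9% at day 35. Uninjured muscle had 12.0% to 14.1%, below every day 35 library. For subunits of cytochrome oxidase, the common form Cox6a1 fell from 23.5%, 20.9%, 16.8% and 11.6% to 2.77%, 2.99%, 2.62% and 2.39% of its sum with the muscle form Cox6a2. Cox8a fell from 65.5%, 53.6%, 57.0% and 52.4% to 8.80%, 12.0%, 9.36% and 5.53% of its sum with Cox8b, and Cox7a2 from 66.3%, 44.7%, 48.9% and 46.6% to 21.1%, 25.8%, 24.1% and 21.3% of its sum with Cox7a1. The oxidase shares did not stay above uninjured muscle as that of Eef1a1 did. Uninjured libraries had 1.67% to 3.94% for Cox6a1 and 8.02% to 40.7% for Cox8a. For Cox7a2 they had 26.9% to 39.1%, above every day 35 library. Per kilobase, the levels of Eef1a1, Cox6a1 and Cox8a were lower at day 35, while Cox7a2 rose from a mean of 60.3 to 125 CPM per kilobase and its partner Cox7a1 from 62.4 to 424. Muscle cells and all other cells of the tissue contribute to the common forms, and these contributions were not separated.

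**Figure D3:**
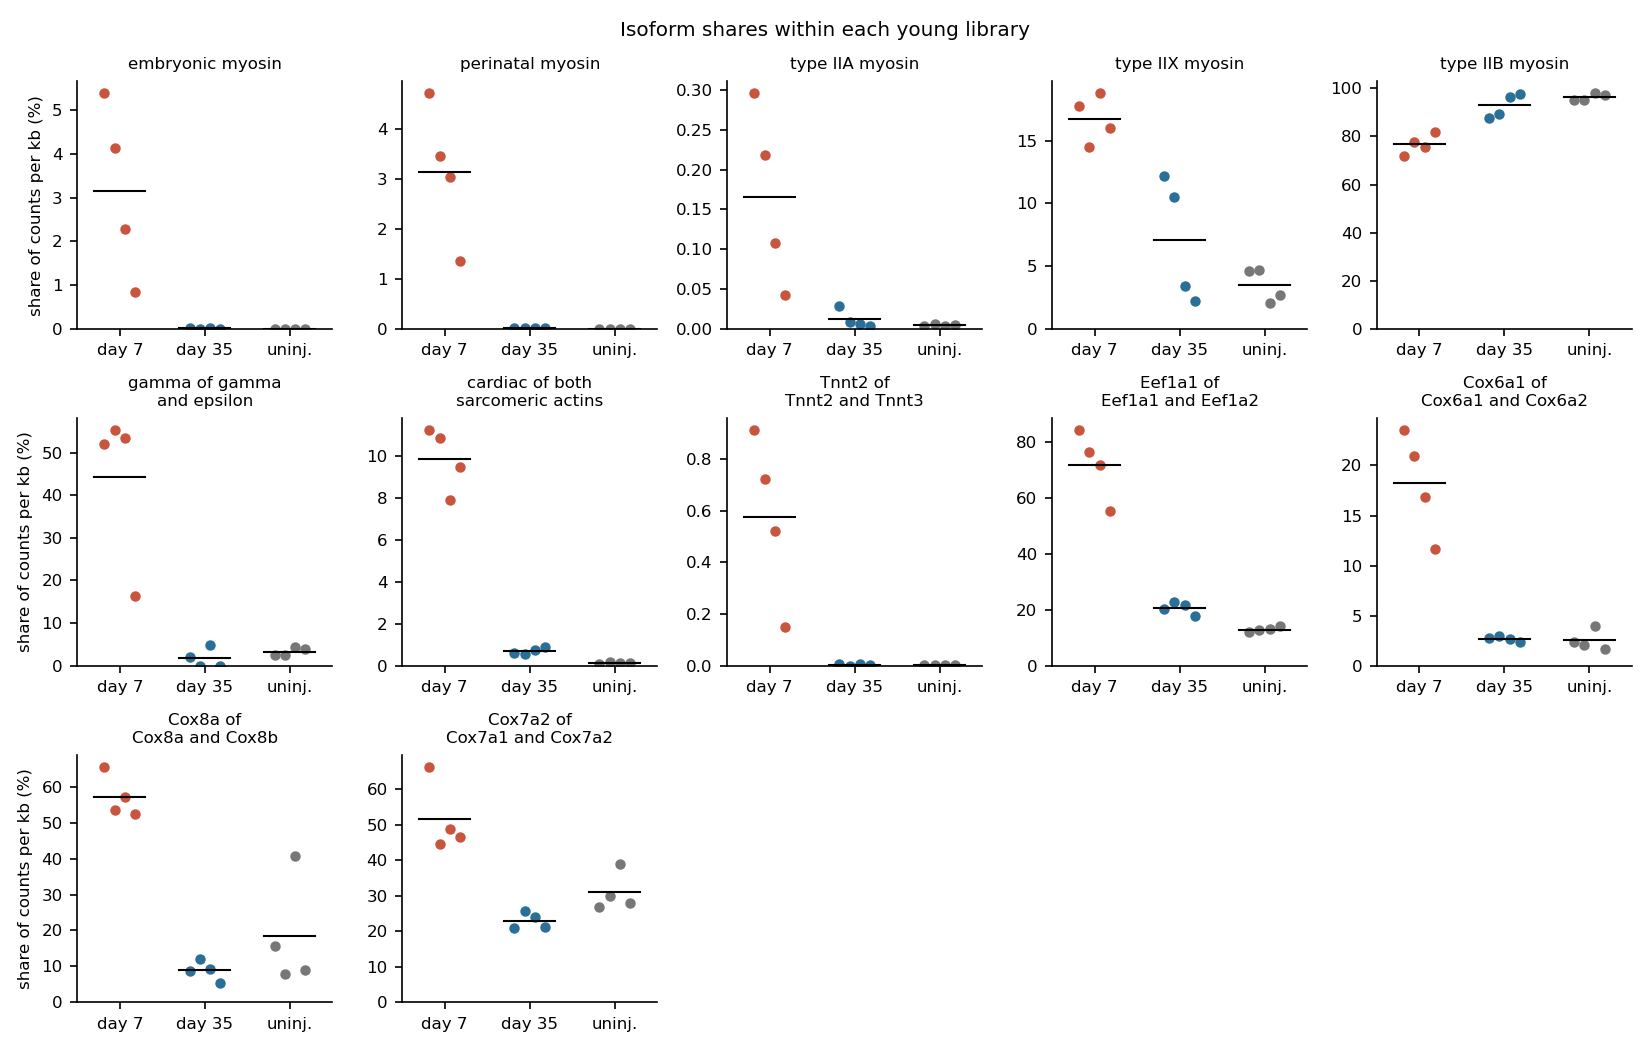
Share of counts per kilobase held by 1 isoform of its family in each young library, in percent on axes that start at 0, with a black bar at the mean of 4 libraries. Embryonic, perinatal, cardiac and common isoforms are high at day 7 and type IIB myosin is high at day 35, with no overlap between day 7 and day 35 in any panel.

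The acetylcholine receptor of the endplate exchanges its fetal gamma subunit for the adult epsilon subunit as fibres mature. Chrng (ENSMUSG00000026253, chromosome 1, 87204657 to 87212694), the gamma subunit, had 27.2, 35.5, 30.4 and 12.6 CPM at day 7 and 0.968, 0, 1.73 and 0 CPM at day 35 (log2 fold change -5.32, SE 0.95, adjusted p = 3.78e-05, or -6.33 without library 3 of day 35). Day 35 libraries 2 and 4 held no Chrng count, which allows up to 0.159 and 0.235 CPM at 3 counts. Chrne (ENSMUSG00000014609, chromosome 11, 70614883 to 70619216), the epsilon subunit, had 10.2, 11.7, 10.8 and 26.1 CPM at day 7 and 19.6, 15.4, 14.1 and 28.7 CPM at day 35, and the groups overlapped through day 7 library 7 (log2 fold change 0.41, SE 0.45, adjusted p = 0.457; scaling by library size alone gave -0.18). The gamma share of gamma plus epsilon was 51.9%, 55.3%, 53.4% and 16.4% at day 7 and 1.96%, 0%, 4.74% and 0% at day 35. Chrne at day 35 was higher than in uninjured muscle, where it stood at 6.19 ± 2.18 CPM (log2 fold change 1.65, SE 0.48, adjusted p = 0.0182). Promoters of this pair and of the myosin pair Myh3 and Myh4 are shown because the balance within each pair shifted, although Chrne itself did not pass the test. Each run is the 250 bases before the gene start in RefSeq (GRCm38.p6), 5′ to 3′. The RefSeq start of Chrng lies inside the span that the table gives for the gene. Capitals mark CAGCTG, the E-box form bound by myogenic factors, and CCGGAA, the N-box core of endplate genes, in the receptor pair, and CAGCTG and TATAAA in the myosin pair, on either strand.
Chrng (chr1:87205561-87205810, plus strand): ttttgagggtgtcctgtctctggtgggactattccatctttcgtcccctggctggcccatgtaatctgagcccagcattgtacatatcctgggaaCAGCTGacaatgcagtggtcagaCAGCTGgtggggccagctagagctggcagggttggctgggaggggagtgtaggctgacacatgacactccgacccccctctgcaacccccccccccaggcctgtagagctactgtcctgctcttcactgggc
Chrne (chr11:70619195-70619444, minus strand): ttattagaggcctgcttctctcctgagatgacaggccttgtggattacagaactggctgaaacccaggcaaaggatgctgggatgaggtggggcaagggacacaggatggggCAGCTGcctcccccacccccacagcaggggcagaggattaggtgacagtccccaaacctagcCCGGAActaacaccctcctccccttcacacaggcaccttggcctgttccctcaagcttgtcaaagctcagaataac
Myh3 (chr11:67078050-67078299, plus strand): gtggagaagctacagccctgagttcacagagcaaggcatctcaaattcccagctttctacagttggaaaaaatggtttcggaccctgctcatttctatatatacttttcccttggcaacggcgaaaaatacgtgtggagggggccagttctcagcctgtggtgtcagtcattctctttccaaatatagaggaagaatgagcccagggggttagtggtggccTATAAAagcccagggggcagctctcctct
Myh4 (chr11:67237562-67237811, plus strand): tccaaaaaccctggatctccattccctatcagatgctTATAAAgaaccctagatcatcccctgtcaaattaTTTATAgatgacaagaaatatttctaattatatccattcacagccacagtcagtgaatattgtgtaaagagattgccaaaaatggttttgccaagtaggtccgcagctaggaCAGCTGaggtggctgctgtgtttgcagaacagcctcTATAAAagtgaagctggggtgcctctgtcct

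The gamma promoter held 2 CAGCTG and no CCGGAA, and the epsilon promoter 1 of each. The Myh3 promoter held 1 TATAAA and no CAGCTG, and the Myh4 promoter 3 TATAAA and 1 CAGCTG. Of 27025 mouse genes with a promoter entry, 12.8% held CAGCTG, 12.2% CCGGAA and 13% TATAAA in the same window. These matches describe letters and say nothing of binding.

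Other genes of the neuromuscular junction also fell. None of 18 listed genes rose and 12 fell, with a median of -0.67. Chrnd, the delta subunit, fell from 41.3, 35.7, 37.5 and 21.3 CPM to 2.78, 2.18, 4.19 and 1.88 CPM (log2 fold change -3.62, SE 0.51, adjusted p = 1.06e-06). Chrna1, the alpha subunit, fell from 177 ± 29.8 to 21.3 ± 2.87 CPM (log2 fold change -3.05, SE 0.42, adjusted p = 6.2e-07), and Chrnb1, the beta subunit, from 136 ± 25.6 to 50.7 ± 8.41 CPM (log2 fold change -1.42, SE 0.23, adjusted p = 5.01e-06). Lrp4, the receptor for agrin, fell from 34.4 ± 7.17 to 13.2 ± 4.33 CPM. Against uninjured muscle, Lrp4 (0.87, adjusted p = 0.0176) and the agrin gene Agrn (0.66, adjusted p = 0.00185) were higher at day 35 and Musk, the kinase that agrin and Lrp4 activate, was lower (-3.75, adjusted p = 2.74e-05).

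Among genes that couple excitation to contraction, more rose than fell with TMM scaling but not with library size alone. Over all genes tested, 26% rose and 29.3% fell with TMM. Of 22 genes of calcium release and the triad, 10 rose and 3 fell, with a median of 0.74; with library size alone 4 rose and 7 fell (median 0.11). Atp2a1, the fast calcium pump, had 9887, 9785, 13968 and 21949 CPM at day 7 and 40324, 47487, 49118 and 44998 CPM at day 35 (log2 fold change 1.71, SE 0.38, adjusted p = 0.000331). Tmem38a, a potassium channel of the sarcoplasmic reticulum, rose by 1.71, Jph1, which ties the reticulum to the T-tubule, by 1.49 and Jsrp1, a junctional protein, by 1.22 on the log2 scale. Those that fell were Sln, the calcium pump inhibitor sarcolipin (-2.61, adjusted p = 0.00234), Sypl2 (-1.03, adjusted p = 0.00942) and the membrane repair protein Dysf (-0.64, adjusted p = 0.0144).

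Among 16 sarcolemmal channels and pumps 10 rose and 4 fell (median 1.09). Scn4b, a sodium channel beta subunit, had 15.3, 39.8, 24.2 and 62.1 CPM at day 7 and 948, 1029, 974 and 1063 CPM at day 35 (log2 fold change 4.83, SE 0.60, adjusted p = 1.63e-07), and Kcnc4, a fast potassium channel, rose from 13.3 ± 4.16 to 188 ± 33.1 CPM (log2 fold change 3.83, SE 0.34, adjusted p = 3.58e-10). On the log2 scale Scn4a, the adult sodium channel, rose by 1.61. Atp1b4, a muscle protein of the sodium pump beta family, had 141, 139, 119.8 and 129.8 CPM at day 7 and 12.2, 8.29, 4.76 and 8.31 CPM at day 35 (log2 fold change -3.98, SE 0.40, adjusted p = 5.09e-09) and was still above uninjured muscle (1.55, adjusted p = 0.0115). Kcnn3, a potassium channel, also fell (-0.78, adjusted p = 0.0422).

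Of 24 Z-disc and M-band genes 16 rose and 5 fell, with a median of 0.85; with library size alone 8 rose and 7 fell. Tcap, the titin cap, had 104, 217, 148 and 187 CPM at day 7 and 4046, 2952, 2801 and 3612 CPM at day 35 (log2 fold change 4.35, SE 0.42, adjusted p = 9.94e-10), and the uninjured mean was 2318 ± 829.6 CPM. Myom3, a myomesin of slow and intermediate fibres, fell from 130.4 ± 23.1 to 4.05 ± 2.99 CPM (log2 fold change -4.99, SE 0.66, adjusted p = 5.4e-07), as did the slow calsarcin given above. The others that fell were the actin crosslinker Actn2 (-1.17, adjusted p = 0.00589), leiomodin Lmod3 (-0.93, adjusted p = 0.00254) and the obscurin-like gene Obsl1 (-0.61, adjusted p = 0.00356). Of 18 genes of the dystrophin complex and membrane repair, 6 rose and 9 fell (median -0.44). Sgca, alpha-sarcoglycan, rose by 1.55, while Anxa2, an annexin of membrane repair that many cell types make, fell from 133 ± 38.6 to 23.5 ± 3.40 CPM.

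Most listed genes of energy metabolism rose. Fibre markers were also higher at day 35 (sums given above), and their part in this was not tested. Of 24 genes of glycolysis and glycogen, 18 rose and none fell (median 1.27). Pfkm, muscle phosphofructokinase, had 1615, 1698, 1736 and 2900.2 CPM at day 7 and 7695, 8174, 7837 and 7113 CPM at day 35 (log2 fold change 1.95, SE 0.30, adjusted p = 2.06e-06). Fbp2, muscle fructose bisphosphatase, rose from 7.32 ± 1.90 to 52.7 ± 6.10 CPM (log2 fold change 2.85, SE 0.36, adjusted p = 1.83e-07), Phkb, a phosphorylase kinase subunit, by 1.98 and Pkm, pyruvate kinase, by 1.35 on the log2 scale. With library size alone 12 of the 24 rose and none fell.

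Of 35 nuclear genes of the respiratory chain, 31 rose and 1 fell, Cox6a1 (-0.96, adjusted p = 0.00138), the common isoform given above; the median was 1.08. The complex I subunits Ndufb8 (log2 fold change 1.45, SE 0.25, adjusted p = 1.23e-05) and Ndufa4 (log2 fold change 1.65) and Sdha, of complex II (log2 fold change 1.32), were among those with the smallest p-values. With library size alone 13 rose and 2 fell. All 13 protein-coding genes of the mitochondrial genome rose (median 1.52), and 11 did so with library size alone. Among them mt-Co2, an oxidase subunit, had 39.0, 80.2, 79.0 and 79.8 CPM at day 7 and 228, 288, 276 and 387 CPM at day 35, and mt-Co3 rose from 66.9 ± 14.1 to 217 ± 16.7 CPM (log2 fold change 1.70, SE 0.22, adjusted p = 1.55e-07). Nuclear copies of mitochondrial genes and the overlap of mt-Co3 with mt-Atp6 make single mitochondrial values uncertain.

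Of 24 genes of fatty acid use, 21 rose and none fell (median 1.35), and with library size alone 17 rose and 2 fell. Acot2, a mitochondrial acyl-CoA thioesterase, had 7.31, 8.27, 10.3 and 11.1 CPM at day 7 and 90.9, 91.7, 52.0 and 46.4 CPM at day 35 (log2 fold change 2.93, SE 0.28, adjusted p = 1.1e-09). Slc27a1, a fatty acid transport protein, rose from 26.9 ± 3.35 to 225 ± 48.2 CPM (log2 fold change 3.06, SE 0.33, adjusted p = 1.39e-08) and was above uninjured muscle (1.04, adjusted p = 0.0215). Pnpla2, the triglyceride lipase, rose from 70.8 ± 22.6 to 430.5 ± 132 CPM (log2 fold change 2.61, SE 0.29, adjusted p = 1.25e-08). Acot2, Pnpla2 and Pdk4 were higher in day 35 libraries 1 and 2 than in libraries 3 and 4.

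Transcriptional regulators of mitochondria and fatty acid oxidation were mixed. Of 15 such genes, 7 rose and 1 fell, with a median of 0.38 that turned to -0.29 with library size alone. Tfb2m, a mitochondrial transcription factor, rose from 20.5 ± 2.73 to 53.2 ± 4.05 CPM (log2 fold change 1.38, SE 0.13, adjusted p = 1.22e-09), and Esrra, an estrogen-related receptor, from 38.0 ± 7.36 to 106 ± 6.55 CPM (log2 fold change 1.48, SE 0.23, adjusted p = 3.35e-06). Tfam, which packages mitochondrial DNA, rose by 0.89 on the log2 scale with TMM, but had 0.25 and no call with library size alone (adjusted p = 0.12, range over alternatives 1.94e-09 to 0.12). The gene that fell was the coactivator Ppargc1b (-1.83, adjusted p = 2.6e-05), and Ppargc1a had a log2 fold change of -0.36, adjusted p = 0.378.

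Genes linked to fibre atrophy and autophagy were higher at day 35 than at day 7. Of 15 genes of the atrophy programme and FoxO targets, 12 rose and none fell (median 2.05), and 9 rose with library size alone. Foxo4, a FoxO factor, had 38.5, 44.05, 51.7 and 47.0 CPM at day 7 and 283, 305, 295 and 311 CPM at day 35 (log2 fold change 2.72, SE 0.16, adjusted p = 9.71e-14). Bnip3, a mitophagy receptor, rose by 2.47, Ulk1, the kinase that starts autophagy, by 2.58 and Map1lc3b, a coat protein of autophagosomes, by 1.79 on the log2 scale. Against uninjured muscle none of the 15 was higher and 6 were lower (median -0.59), among them Ulk1 (-0.60, adjusted p = 0.0471). The ubiquitin ligase genes Trim63 (-1.33, adjusted p = 0.0292) and Fbxo32 (-1.38, adjusted p = 0.0338) were also below uninjured muscle.

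Genes of polyamine and amino acid metabolism were split. Of 13 tested, 6 rose and 6 fell (median 0.05, or -0.60 with library size alone). Amd1, which makes the aminopropyl donor of polyamines, had 33.0, 32.6, 34.5 and 47.1 CPM at day 7 and 346, 559.6, 411 and 306 CPM at day 35 (log2 fold change 3.46, SE 0.33, adjusted p = 1.08e-09), and Oat, ornithine aminotransferase, rose from 64.1 ± 5.81 to 262 ± 49.2 CPM (log2 fold change 2.03, SE 0.17, adjusted p = 6.96e-11). Psat1 (-4.19, adjusted p = 3e-08), Phgdh (-3.36, adjusted p = 5.91e-05) and the asparagine synthetase gene Asns (-3.39, adjusted p = 2.51e-09), which serve serine and asparagine synthesis, fell. Of 20 genes of translation and ribosome assembly, 4 rose and 3 fell (median 0.03, or -0.64 with library size alone). The falls were led by Eef1a1 (-2.47, adjusted p = 4.14e-08) and Rpl3 (-2.32, adjusted p = 9.18e-09), a ribosomal protein; the third was Bop1 (-0.44, adjusted p = 0.0141). The rises were in assembly factors and elongation: Dkc1 (0.82, adjusted p = 0.000296), Nolc1 (0.61, adjusted p = 0.00214), Eef1a2 (0.81, adjusted p = 0.0348) and Ubtf (0.32, adjusted p = 0.0265). None of the 4 was called with library size alone, where Nolc1 (-0.0663) and Ubtf (-0.33) had the opposite sign.

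Genes of satellite cells and myogenic regulators fell in larger number than they rose. Of 23 listed genes, 12 fell and 4 rose (median -0.85). Myod1, the myoblast determination factor, had 90.8, 79.4, 86.6 and 87.1 CPM at day 7 and 35.9, 33.9, 31.0 and 23.7 CPM at day 35 (log2 fold change -1.46, SE 0.20, adjusted p = 3.88e-07). Megf10, a receptor of activated satellite cells, fell from 23.9 ± 7.25 to 2.22 ± 0.998 CPM (log2 fold change -3.43, SE 0.42, adjusted p = 6.57e-08), and Vcam1, an adhesion receptor of satellite cells and other cells, from 29.6 ± 7.68 to 4.03 ± 1.03 CPM (log2 fold change -2.88, SE 0.26, adjusted p = 3.67e-10). The rises included Chrdl2 (2.84, adjusted p = 0.00993), Mef2d (0.83, adjusted p = 2.25e-05) and Six4 (0.49, adjusted p = 0.0281), Mef2d (0.20) and Six4 (-0.18) not being called with library size alone.

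Among RNA-binding proteins of the fetal and adult splicing programmes, 18 tested of 20 listed, 4 rose and 5 fell (median -0.02), near the 26% and 29.3% of all genes. Mbnl1, which promotes adult splicing, rose from 217 ± 48.1 to 511 ± 53.8 CPM (log2 fold change 1.24, SE 0.18, adjusted p = 1.04e-06). Ptbp1, a splicing repressor of undifferentiated cells, fell from 64.8 ± 14.5 to 13.96 ± 1.48 CPM (log2 fold change -2.21, SE 0.25, adjusted p = 1.43e-08), and Rbfox2, a splicing factor, from 217 ± 10.03 to 84.6 ± 15.3 CPM (log2 fold change -1.36, SE 0.14, adjusted p = 2.46e-09). Igf2bp2, which binds growth-related messenger RNAs, had 10.6, 14.3, 8.49 and 18.3 CPM at day 7 and 0.581, 1.06, 0.144 and 0.392 CPM at day 35 and ended below uninjured muscle (-1.97, adjusted p = 0.00616). The remaining rises were Rbfox1 (1.48, adjusted p = 8.24e-06), Rbm24 (0.67, adjusted p = 0.00894) and Rbm20 (0.51, adjusted p = 0.0345), and the remaining falls Mbnl3 (-3.67, adjusted p = 0.000542) and Srsf10 (-0.33, adjusted p = 0.0486). With library size alone Rbm24 (0.0387) and Rbm20 (-0.11) were not called.

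All 15 imprinted growth genes fell (median -3.68). Imprinted genes are expressed from 1 parental allele, and many of them are active in fetal growth. H19, a non-coding RNA and host of a microRNA, had 5724, 6618, 7559 and 8882 CPM at day 7 and 302, 314, 267 and 269 CPM at day 35 (log2 fold change -4.64, SE 0.42, adjusted p = 3.53e-10). Mest, a hydrolase family member, fell from 229 ± 87.6 to 3.67 ± 0.744 CPM (log2 fold change -5.95, SE 0.40, adjusted p = 4.42e-12), Peg10, derived from a retrotransposon, from 58.2 ± 17.3 to 1.33 ± 0.512 CPM (log2 fold change -5.44, SE 0.41, adjusted p = 1.68e-11) and Grb10, an adaptor that restrains insulin signalling, from 377 ± 47.5 to 32.2 ± 6.72 CPM (log2 fold change -3.55, SE 0.26, adjusted p = 9.72e-12). None of these 4 differed from uninjured muscle at an adjusted p under 0.05. Igf2 (1.88, adjusted p = 0.0313), Peg3 (1.31, adjusted p = 0.00313) and the non-coding RNAs Meg3 (2.32, adjusted p = 0.00426) and Rian (2.20, adjusted p = 0.0135) remained higher than in uninjured muscle and Igf2r (-0.68, adjusted p = 0.0102) was lower.

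The IGF ligands fell. Of 15 genes of IGF signalling, 5 genes rose and 9 fell (median -1.19). Igf1, the main local growth factor of repair, had 156, 136, 142 and 119 CPM at day 7 and 5.94, 7.71, 8.73 and 6.66 CPM at day 35 (log2 fold change -4.25, SE 0.33, adjusted p = 4.2e-11). Igf2 fell from 72.5 ± 9.44 to 3.19 ± 0.923 CPM (log2 fold change -4.50, SE 0.49, adjusted p = 1.86e-08), and Igfbp4, an IGF-binding protein, from 273 ± 68.4 to 51.9 ± 14.7 CPM. The receptors Igf1r (0.52, adjusted p = 0.0191) and Insr (0.91, adjusted p = 0.000202), the adaptor Irs2 (1.65, adjusted p = 0.000133), the kinase Akt2 (0.88, adjusted p = 0.000377) and Igfbp6 (1.09, adjusted p = 0.035) rose. With library size alone Igf1r (-0.16), Insr (0.27), Akt2 (0.22) and Igfbp6 (0.43) were not called.

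Of 22 genes of TGF-beta, activin and myostatin signalling, 4 rose and 10 fell (median -0.60). Acvr1b, a type I activin receptor, had 33.5, 35.7, 31.7 and 33.6 CPM at day 7 and 175, 184, 184 and 192 CPM at day 35 (log2 fold change 2.45, SE 0.19, adjusted p = 2.71e-11). Ltbp2, a latent TGF-beta binding protein family member, fell from 39.6 ± 23.8 to 0.438 ± 0.0977 CPM (log2 fold change -6.47, SE 0.62, adjusted p = 2.21e-09), and Fstl1, a follistatin-like protein, from 458 ± 159.6 to 39.7 ± 9.62 CPM (log2 fold change -3.53, SE 0.41, adjusted p = 3.72e-08). The other rises were Acvr2b (1.94, adjusted p = 3.22e-05), a receptor, and Smad7 (1.73, adjusted p = 5.89e-08) and Smad3 (1.10, adjusted p = 0.00302), which inhibit and carry the signal. Of 15 Notch genes 9 fell and none rose (median -1.10). Notch2, a receptor, fell from 75.0 ± 14.4 to 12.9 ± 3.98 CPM (log2 fold change -2.53, SE 0.24, adjusted p = 5.28e-10), and Dlk1, an imprinted Notch-like ligand, from 20.6 ± 14.5 to 0.412 ± 0.219 CPM (log2 fold change -5.66, SE 0.57, adjusted p = 2.48e-09, or -5.06 without library 5 of day 7).

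Genes of cell division fell in 25 of 27 cases and rose in none (median -4.46). Mki67, a protein of proliferating nuclei, had 76.0, 65.1, 46.8 and 38.6 CPM at day 7 and 0.839, 0.266, 0.577 and 0.157 CPM at day 35 (log2 fold change -6.92, SE 0.75, adjusted p = 2.17e-08), and uninjured muscle had 1.59 ± 2.36 CPM. Kif11, the spindle motor, fell from 14.8 ± 3.27 to 0.640 ± 0.319 CPM (log2 fold change -4.54, SE 0.53, adjusted p = 3.36e-08), and Mcm5, of the replicative helicase, from 12.6 ± 2.79 to 0.779 ± 0.238 CPM (log2 fold change -4.01, SE 0.47, adjusted p = 3.14e-08). Mcm7, of the same helicase, with 17.3 ± 2.60 CPM at day 7 and 17.3 ± 3.38 CPM at day 35, and Pcna, the replication clamp (-0.42, adjusted p = 0.149), did not pass the test. Promoters of Top2a, the DNA topoisomerase of dividing cells (-6.05, adjusted p = 5.98e-08), and Cdk1, the mitotic kinase (-7.17, adjusted p = 1.92e-06), chosen after their values were seen, are shown because nearly the whole list fell. Capitals mark CCAAT and TTTGAA, the core of the cell cycle homology element, on either strand, in the 250 bases before the RefSeq start (GRCm38.p6), 5′ to 3′.
Top2a (chr11:99024190-99024439, minus strand): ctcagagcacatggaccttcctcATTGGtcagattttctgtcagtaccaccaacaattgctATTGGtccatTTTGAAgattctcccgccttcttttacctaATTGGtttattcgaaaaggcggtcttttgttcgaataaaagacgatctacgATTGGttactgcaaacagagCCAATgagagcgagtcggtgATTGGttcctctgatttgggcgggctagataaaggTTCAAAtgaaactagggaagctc
Cdk1 (chr10:69352913-69353162, minus strand): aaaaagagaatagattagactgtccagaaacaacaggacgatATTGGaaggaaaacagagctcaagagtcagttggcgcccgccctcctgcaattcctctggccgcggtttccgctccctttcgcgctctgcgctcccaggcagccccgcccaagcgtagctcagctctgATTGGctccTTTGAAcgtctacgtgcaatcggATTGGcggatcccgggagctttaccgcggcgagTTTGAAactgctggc

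Top2a held 6 CCAAT and 2 TTTGAA, and Cdk1 held 3 and 2. CCAAT was in 87% of the 23 promoters found for the 27 genes and in 34.5% of all 27025. TTTGAA was in 34.8% of the 23 and in 16.3% of all. Other lists were searched too and are not described here, except that CCAAT was in 71.4% of the 14 promoters found for the 16 clock genes.

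Macrophage genes fell in 17 of 19 cases and none rose (median -3.66). Fcgr1, the high-affinity receptor for IgG, had 23.4, 17.8, 11.7 and 9.66 CPM at day 7 and 0.904, 0.266, 0.577 and 0.470 CPM at day 35 (log2 fold change -4.82, SE 0.55, adjusted p = 3.28e-08). Mrc1, the mannose receptor, fell from 71.0 ± 18.4 to 6.57 ± 2.44 CPM (log2 fold change -3.42, SE 0.41, adjusted p = 9.38e-08) and Mertk, a receptor for engulfing dead cells, from 16.9 ± 2.52 to 3.08 ± 0.882 CPM (log2 fold change -2.45, SE 0.29, adjusted p = 3.94e-08). Cx3cr1, the fractalkine receptor, fell by 5.57 on the log2 scale, and its locus overlaps that of the muscle gene Xirp1. The 4 defining macrophage markers summed to 235 to 461 CPM at day 7 and 15.7 to 33.8 CPM at day 35, against 13.7 to 44.8 CPM in uninjured muscle. Cd163 (-0.76, adjusted p = 0.0916) and Lyve1 (0.28, adjusted p = 0.792), which mark resident macrophages, did not pass the test.

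Genes of other immune cells were at low levels. Among T and NK genes 11 of 15 fell (median -3.64, or -3.43 with genes of few counts at the floor). Il2rb, the IL-2 receptor beta chain, had 4.86, 9.16, 8.08 and 4.95 CPM at day 7 and 0, 0.372, 0.505 and 0.157 CPM at day 35 (log2 fold change -4.66, SE 0.75, adjusted p = 5.81e-06). Cd4, the T helper coreceptor, had a log2 fold change of -4.09, and Gzma, a granzyme, of -5.30, or -8.75 without library 1 of day 35. The T cell markers Cd3e, Cd3d and Cd8a summed to 2.13 to 5.25 CPM at day 7 and 0.129 to 0.505 CPM at day 35, where Cd3d was at 0. Of 4 neutrophil genes tested, Csf3r, the receptor for G-CSF, fell (log2 fold change -4.44, SE 0.34, adjusted p = 1.84e-11). Mmp8 also passed (-3.30, adjusted p = 0.0184), with 1 day 35 library above 0; its adjusted p was above 0.05 with limma voom and without library 1, 2 or 4 of day 35 or library 7 of day 7, and ran from 0.00375 to 0.107. It was -6.41 without library 3 of day 35. S100a8 (-2.49, adjusted p = 0.106) and S100a9 (2.42, adjusted p = 0.119) did not pass, and the 4 neutrophil markers summed to 9.17 to 16.5 CPM at day 7 and 0.627 to 0.904 CPM at day 35. That sum was mostly Csf3r, which alone had 7.71 to 15.7 CPM at day 7. S100a8, S100a9 and Mmp8 had at most 0.382, 0.0898 and 1.10 CPM there.

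Of 4 B and plasma cell genes tested, Cd79b, a part of the B cell receptor, fell (-1.996, adjusted p = 0.0118) and Ighm, the IgM heavy chain, rose (0.91, adjusted p = 0.0393). Cd79b had -2.66 without library 1 of day 35 and lost its call without library 7 of day 7 (log2 fold change -1.496, adjusted p = 0.0642, range 0.00149 to 0.0642). Ighm lost its call under 10 of the alternatives, with adjusted p from 0.0121 to 0.596. The B cell marker Ms4a1 was at 0 in every day 7 library. All 14 antigen presentation genes fell (median -2.22), as did 19 of 20 interferon response genes (median -2.31) and 11 of 15 complement genes (median -1.12). H2-DMa, which loads class II molecules, fell from 10.4 ± 1.29 to 1.92 ± 0.0841 CPM (log2 fold change -2.43, SE 0.27, adjusted p = 1.49e-08), and Ciita, the class II transactivator, had a log2 fold change of -2.92. Oasl2, an interferon-induced protein, had 41.8, 41.8, 20.6 and 22.2 CPM at day 7 and 2.84, 3.40, 2.17 and 2.66 CPM at day 35 (log2 fold change -3.50, SE 0.35, adjusted p = 2.51e-09), Ddx58, the RNA sensor RIG-I, fell by 2.32 on the log2 scale, and Stat2, which carries the interferon signal, fell by 1.97. C3ar1, a complement receptor, fell from 52.2 ± 24.5 to 1.46 ± 0.752 CPM, and C1qc, a C1q chain of macrophages, from 98.1 ± 19.6 to 7.68 ± 2.06 CPM. These genes are active in macrophages, whose markers moved in the same direction, and the part of macrophages was not tested.

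Matrix genes fell, and several were still above the uninjured level. Of 28 genes of fibrillar and other matrix proteins, 26 fell and none rose (median -3.82). Postn, periostin, had 2019, 1651, 1411 and 751 CPM in day 7 libraries 4 to 7 and 12.5, 13.9, 11.8 and 8.46 CPM in day 35 libraries 1 to 4 (log2 fold change -6.96, SE 0.62, adjusted p = 5.52e-10). Col6a3, a collagen VI chain, fell from 733 ± 142 to 32.1 ± 1.83 CPM (log2 fold change -4.51, SE 0.36, adjusted p = 4.42e-11), Col5a2, a collagen V chain, from 477 ± 111 to 26.2 ± 5.84 CPM (log2 fold change -4.19, SE 0.41, adjusted p = 2.51e-09) and the proteoglycan Bgn from 932 ± 273 to 64.6 ± 21.8 CPM (log2 fold change -3.85, SE 0.37, adjusted p = 1.37e-09). Decorin (-0.29, adjusted p = 0.392) and fibromodulin (0.28, adjusted p = 0.754), encoded by Dcn and Fmod, did not pass. Against uninjured muscle, 11 of the 28 were still higher and none was lower (median 1.08), against 7.06% of all genes higher. They included Postn (1.94, adjusted p = 0.016), Col5a2 (1.36, adjusted p = 0.0151) and Bgn (1.08, adjusted p = 0.0292). The Pdgfra, Dpp4 and Ly6a markers of fibro-adipogenic progenitors, which make matrix, summed to 70.2 to 84.1 CPM at day 7 and 41.3 to 56.0 CPM at day 35, and their part was not tested.

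Of 13 basement membrane genes, 11 fell and none rose (median -1.98). Nid2, nidogen, had 62.8, 62.6, 57.5 and 56.7 CPM at day 7 and 10.5, 6.11, 7.36 and 6.35 CPM at day 35 (log2 fold change -2.98, SE 0.24, adjusted p = 2.56e-11), and Lamb1, a laminin chain, fell by 2.86 and stayed above uninjured muscle (0.93, adjusted p = 0.00708). Col18a1, a collagen of basement membranes, fell by 3.62. Of 21 genes for matrix proteases and crosslinking, 17 fell and 3 rose (median -3.30). Adam12, a protease of regenerating muscle, had 92.9, 76.5, 52.1 and 25.2 CPM at day 7 and 1.10, 0.0532, 1.08 and 0.941 CPM at day 35 (log2 fold change -6.33, SE 0.55, adjusted p = 4.24e-10), Mmp14 fell by 3.41, and Loxl1, a collagen and elastin crosslinker, fell by 3.57 to below the uninjured level (-1.31, adjusted p = 0.00479). The rises were the protease inhibitors Timp4 (3.91, adjusted p = 1.01e-06) and Timp3 (1.46, adjusted p = 6.35e-07) and the protease Adamts1 (0.69, adjusted p = 0.003).

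**Figure D4:**
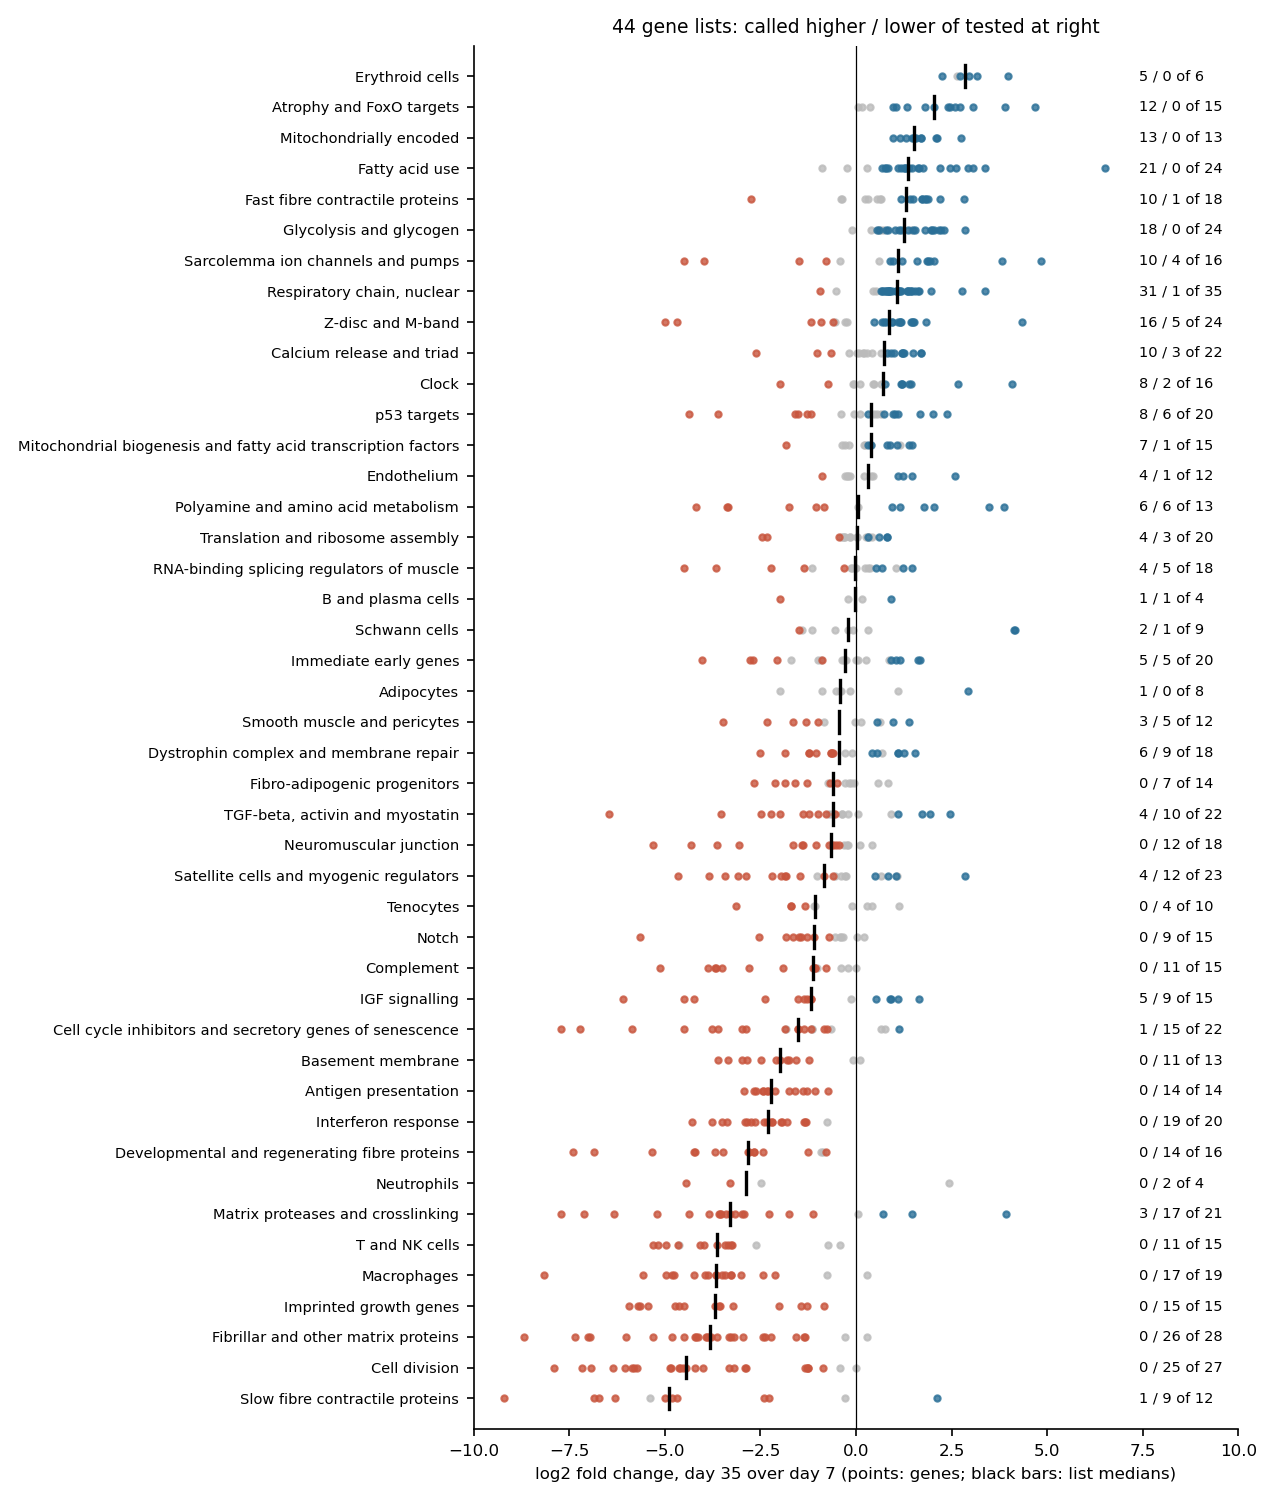
Log2 fold change at day 35 over day 7 of each gene of 44 lists, with 1 point per gene (blue higher, red lower, grey not called), a black bar at the list median and the number called higher and lower of those tested at the right. Lists run from slow fibre, cell division and matrix genes at the bottom to atrophy and erythroid genes at the top.

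Several lists with calls in both directions split in another way with library size alone. Under that scaling 2 satellite cell genes rose and 16 fell, 2 RNA-binding genes rose and 10 fell, and no translation gene rose and 11 fell. In IGF signalling 1 rose and 10 fell, and in TGF-beta signalling 3 rose and 16 fell. No smooth muscle gene rose and 6 fell, 4 genes of the dystrophin list rose and 11 fell, 4 clock genes rose and 3 fell, 2 early response genes rose and 9 fell, and 3 p53 targets rose and 8 fell. Of the endothelial list 2 rose and 6 fell, of the Schwann cell list 2 rose and 3 fell, of the adipocyte list 1 rose and 2 fell, and of the polyamine list 4 rose and 7 fell. The lists without a rise under TMM had none with library size alone either.

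Stromal, vascular and nerve genes were mixed. Of 14 genes of fibro-adipogenic progenitors, 7 fell (median -0.59), among them Fap (log2 fold change -2.67, SE 0.25, adjusted p = 6.18e-10) and the transcription factor Hic1 (log2 fold change -1.87, SE 0.23, adjusted p = 9.58e-08). Of their 3 defining markers, Dpp4 (-0.12, adjusted p = 0.879) and Ly6a (-0.18, adjusted p = 0.699) did not pass the test. The third, Pdgfra, had 44.3 to 50.5 CPM at day 7 and 11.7 to 24.6 CPM at day 35, without overlap. Of 10 tenocyte genes 4 fell, Scx, a tendon transcription factor (-1.69, adjusted p = 1.25e-05), Col11a1 (-3.13, adjusted p = 0.000973, or -2.48 without library 5 of day 7), Thbs4 (-1.33, adjusted p = 0.00804) and Comp (-1.71, adjusted p = 0.0371). Of 12 endothelial genes 4 rose and Emcn fell (-0.88, adjusted p = 0.00378). Aqp1, a water channel, rose from 49.1 ± 13.4 to 294 ± 76.8 CPM (log2 fold change 2.58, SE 0.22, adjusted p = 9.91e-11), and Flt1, a VEGF receptor, from 22.2 ± 4.19 to 60.7 ± 10.2 CPM (log2 fold change 1.46, SE 0.18, adjusted p = 9.3e-08); Cldn5 (1.22, adjusted p = 0.000532) and Fabp4 (1.10, adjusted p = 0.00291) also rose. The defining endothelial markers Pecam1 (-0.24, adjusted p = 0.251) and Cdh5 (-0.20, adjusted p = 0.41) did not pass, and the median of the 12 turned from 0.31 to -0.33 with library size alone.

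Of 12 smooth muscle and pericyte genes 3 rose and 5 fell (median -0.44). Cspg4, the NG2 proteoglycan, fell from 46.9 ± 2.91 to 9.41 ± 1.14 CPM (log2 fold change -2.32, SE 0.25, adjusted p = 5.9e-09), and Smtn, smoothelin, had a log2 fold change of -1.32. The defining smooth muscle markers were split. Myh11 had 10.7 to 14.6 CPM at day 7 and 20.1 to 30.2 CPM at day 35, Acta2 fell as given above, and Cnn1 had at most 0.848 CPM. With library size alone no gene of this list rose. Of 9 Schwann cell genes 2 rose and 1 fell. The glial transcription factor Sox10 rose (4.15, adjusted p = 0.00342) and Pmp22, a myelin protein, fell (-1.49, adjusted p = 4.06e-05), while the myelin gene Mbp did not pass (-0.22, adjusted p = 0.523). Levels of Sox10 were near the limit of detection, at 0 to 0.0424 CPM at day 7 and 0.217 to 0.392 CPM at day 35, so the size of its rise is uncertain. Among 8 adipocyte genes 1 rose, Plin4, a lipid droplet protein also made by muscle fibres (log2 fold change 2.93, SE 0.48, adjusted p = 8.32e-06). Of 6 erythroid genes 5 rose (median 2.84), Hbb-bt (log2 fold change 3.98, SE 0.95, adjusted p = 0.000873, or 4.56 without library 7 of day 7), Hbb-bs (3.17, adjusted p = 0.00149), Hba-a1 (2.96, adjusted p = 0.00307), Hba-a2 (2.72, adjusted p = 0.00433) and Alas2 (2.25, adjusted p = 0.0446). The globin genes are close copies of each other, so single values are uncertain, and the part of blood left in the tissue was not tested.

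Of 16 clock genes 8 rose and 2 fell (median 0.71). Tef, an output factor, rose from 199.8 ± 23.8 to 518 ± 33.6 CPM (log2 fold change 1.37, SE 0.24, adjusted p = 1.31e-05) and Nr1d2, a repressor, from 69.0 ± 15.2 to 159.9 ± 23.4 CPM. Those that fell were Npas2 (-1.997, adjusted p = 0.000146) and Clock (-0.74, adjusted p = 0.00302). The hour of collection is not in the labels. Of 20 early response genes 5 rose and 5 fell (median -0.29), near the 26% and 29.3% of all genes. Egr3 fell from 9.76, 4.83, 4.00 and 3.73 CPM to 0.517, 0.425, 0.144 and 0.235 CPM (log2 fold change -4.02, SE 0.58, adjusted p = 8.84e-07) and Egr1 from 27.2 ± 4.80 to 6.47 ± 2.97 CPM (log2 fold change -2.06, SE 0.35, adjusted p = 1.06e-05), while Jun rose from 85.0 ± 18.3 to 189 ± 23.97 CPM (log2 fold change 1.15, SE 0.22, adjusted p = 5.75e-05). The other rises were Btg2 (1.67, adjusted p = 0.000152), Nr4a1 (1.61, adjusted p = 0.00742), Klf4 (1.05, adjusted p = 0.00605) and Zfp36 (0.90, adjusted p = 0.0258), the last 3 not called with library size alone, and the other falls Egr2 (-2.70, adjusted p = 9.86e-05), Atf3 (-2.78, adjusted p = 0.00108) and Ier2 (-0.88, adjusted p = 0.00162).

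Targets of p53, which the series title names with its partner MDM2, were split in young muscle, which received vehicle only. Of 20 targets 8 rose and 6 fell, and the median turned from 0.39 to -0.25 with library size alone. Phlda3, an inhibitor of Akt, had 57.6, 109.7, 87.8 and 96.9 CPM at day 7 and 563, 426, 374 and 462 CPM at day 35 (log2 fold change 2.37, SE 0.31, adjusted p = 2.18e-07), and Ei24 rose from 44.6 ± 5.16 to 90.0 ± 8.33 CPM (log2 fold change 1.01, SE 0.11, adjusted p = 1.02e-08). Zmat3, an RNA-binding target, fell from 27.6 ± 3.24 to 9.03 ± 1.35 CPM (log2 fold change -1.61, SE 0.19, adjusted p = 2.47e-08). Of 22 cell cycle inhibitors and secreted genes linked to senescence, 15 fell and 1 rose (median -1.52). Glb1, the gene of lysosomal beta-galactosidase, fell from 17.0, 16.4, 17.8 and 12.8 CPM to 2.52, 2.39, 2.24 and 1.49 CPM (log2 fold change -2.88, SE 0.29, adjusted p = 2.57e-09), and Ccl8, a chemokine, from 14.2 ± 5.11 to 0.610 ± 0.146 CPM (log2 fold change -4.51, SE 0.90, adjusted p = 0.000145). Ccl7, another chemokine, had 1 count at day 35, with day 7 219-fold (exact 95% interval 39.1 to 8688) higher and a fitted value of -7.21, or -9.02 without library 4 of day 35. Macrophage markers fell over the same days, and their part was not tested. The 1 higher gene was Cdkn2a, which encodes p16 and ARF, with 2.25 ± 1.44 CPM at day 7 and 4.89 ± 1.88 CPM at day 35 (log2 fold change 1.13, SE 0.46, adjusted p = 0.0386). Its day 7 and day 35 libraries overlapped, and the call was lost with library size alone (adjusted p = 0.314) and without library 1 or 4 of day 35 or library 4, 5 or 6 of day 7 (range 0.00513 to 0.314). It was also above uninjured muscle at day 35 (log2 fold change 5.38, SE 0.69, adjusted p = 5.21e-06), and it was chosen after its values were seen. That value puts its mean level in uninjured muscle below the 0.232 to 0.289 CPM that 3 counts make there, so the size of the difference is uncertain.

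The same change was measured in old muscle, and these comparisons share no library with the young ones. Old vehicle muscle at day 35 differed from day 7 in 10085 genes (58.9%) and old muscle given BI01 in 9511 (55.6%; 26.2% higher and 29.4% lower). Over the 17121 genes the log2 fold changes of young and old vehicle muscle had a Spearman correlation of 0.85, and 96.0% of the genes called in young muscle had the same sign in old vehicle muscle. Of the young calls 79.9% were called the same way in old vehicle muscle, which is 75.0% of the old calls. The difference between the changes, tested as an interaction, passed in 475 genes (2.77%) against old vehicle muscle, 142 higher in young (0.829%) and 333 lower (1.94%), and in 240 genes (1.4%) against old muscle given BI01, 76 higher (0.444%) and 164 lower (0.958%). With library size alone the split changed: 74.8% of 489 called differences from old vehicle and 64.6% of 209 from old BI01 were higher in young, against 29.9% and 31.7% with TMM. Leaving out 1 young library gave 155 to 539 called differences from old vehicle, the fewest without library 7 of day 7, and 79 to 238 from old BI01, the fewest without library 1 of day 35. Against old vehicle there were 203, 239, 298 and 264 without libraries 1, 2, 3 and 4 of day 35 and 303 without library 6 of day 7. Against old BI01 there were 120 without library 2 and 126 without library 4 of day 35, and 141 without library 4 and 84 without library 7 of day 7.

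Among genes that averaged 5 CPM or more in some group, Pdk4 differed most in the upward direction. In young muscle it had 35.0 to 61.4 CPM at day 7 and 3087 to 6145 CPM at day 35, in old vehicle muscle 23.6 to 95.9 and 60.3 to 225 CPM, and in old muscle given BI01 27.7 to 147 and 116 to 1238 CPM. At day 35 every young library lay above every old one. On the log2 scale the difference of changes was 5.03, SE 0.85, adjusted p = 0.00198 against old vehicle and 3.81, SE 0.83, adjusted p = 0.0215 against old BI01, the second not called without library 1 of day 35 (adjusted p = 0.0529, range 0.000893 to 0.0529). Ddit4, a stress-induced inhibitor of mTOR, rose in young muscle from 4.51, 10.1, 5.08 and 2.45 CPM to 31.2, 32.8, 141 and 86.1 CPM and had 3.43 to 15.4 and 3.81 to 11.1 CPM at day 7 and day 35 in old vehicle muscle (difference 4.18, SE 0.78, adjusted p = 0.00389). Il12a, an interleukin-12 subunit, had 0, 0.382, 0.225 and 0.245 CPM at day 7 and 3.55, 5.79, 6.06 and 4.70 CPM at day 35 in young muscle, and 0.423 to 1.13 and 0.491 to 2.27 CPM in old vehicle muscle (difference 4.14, SE 0.70, adjusted p = 0.00133). Gadd45g, a stress response gene, rose from 7.06 ± 4.25 to 102 ± 38.9 CPM in young muscle and had 5.15 to 31.6 and 9.58 to 22.5 CPM in old vehicle muscle (difference 3.51, SE 0.76, adjusted p = 0.0128).

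Angptl4, an inhibitor of lipoprotein lipase, moved apart. In young muscle its levels of 9.92, 17.6, 9.88 and 8.07 CPM at day 7 and 36.8, 31.9, 20.5 and 23.3 CPM at day 35 did not pass the test (1.31, adjusted p = 0.067), while in old vehicle muscle it fell from a range of 7.95 to 50.5 CPM to one of 1.14 to 5.34 CPM (-3.06, adjusted p = 0.000296). The difference was 4.36, SE 0.89, adjusted p = 0.00921 against old vehicle and 3.62, SE 0.88, adjusted p = 0.037 against old BI01. The latter was lost with no filter on low counts and without library 1, 2 or 4 of day 35 or library 4, 6 or 7 of day 7, and its adjusted p ran over 0.00508 to 0.0881. Of the 24 fatty acid genes 3 had a called difference from old vehicle, Pdk4, Acot2 (2.68, adjusted p = 0.000323) and Slc27a1 (1.90, adjusted p = 0.0191), all higher in young, and 2 from old BI01. Of the atrophy and FoxO list 4 did, Ulk1 (1.39, adjusted p = 0.00961), Gabarapl1 (1.71, adjusted p = 0.0172), Sesn1 (1.73, adjusted p = 0.0228) and Fbxo21 (1.27, adjusted p = 0.00133), also higher, and 2 had one from old BI01. Both differences use the same young libraries.

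Tfrc, the transferrin receptor, differed in the downward direction. It fell in young muscle from 271, 251, 319 and 515 CPM to 45.5, 51.8, 38.5 and 31.9 CPM, whereas in old vehicle muscle it had 88.6 to 294 CPM at day 7 and 319 to 568 CPM at day 35. The difference was -3.93, SE 0.59, adjusted p = 0.000489 against old vehicle and -3.56, SE 0.58, adjusted p = 0.00218 against old BI01, and every old vehicle library at day 35 lay above every young one. Aqp4, the water channel of fast fibres, had 1.74, 3.60, 5.25 and 9.79 CPM at day 7 and 6.46, 11.6, 13.7 and 4.15 CPM at day 35 in young muscle without passing the test (0.84, adjusted p = 0.219), and rose from a range of 0 to 1.98 CPM to one of 22.2 to 38.6 CPM in old vehicle muscle (difference -4.33, SE 0.87, adjusted p = 0.00791).

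Krt8, a keratin that regenerating fibres also make, fell in young muscle (-2.66, adjusted p = 0.00902) and had 1.19 to 4.84 CPM at day 7 and 5.84 to 68.5 CPM at day 35 in old vehicle muscle (2.93, adjusted p = 0.00214; difference -5.59, SE 1.15, adjusted p = 0.00904). Kcng4, a modulatory potassium channel subunit, had a log2 fold change of 3.87, adjusted p = 2.43e-05 in young and 8.10, adjusted p = 2.6e-08 in old vehicle muscle (difference -4.23, SE 1.12, adjusted p = 0.0406), and the difference was lost under 8 alternatives, with adjusted p from 0.0132 to 0.116. Of 13 mitochondrially encoded genes 5 had a called difference from old vehicle, all lower in young, and none from old BI01. They were led by mt-Co3 (-1.67, adjusted p = 0.00308) and mt-Co2 (-1.44, adjusted p = 0.039); the others were mt-Nd2 (-1.41, adjusted p = 0.0246), mt-Nd6 (-1.21, adjusted p = 0.042) and mt-Nd4 (-1.23, adjusted p = 0.0497). Over all genes 1.4% had a called difference from old BI01 and 2.77% from old vehicle. The basement membrane list had 6 called differences from old BI01 and 4 from old vehicle, all lower in young. The latter were Col15a1 (-2.19, adjusted p = 0.00791), Col4a1 (-1.46, adjusted p = 0.0308), Col4a2 (-1.25, adjusted p = 0.0291) and Nid2 (-1.17, adjusted p = 0.039). With library size alone the differences of mt-Co2, mt-Nd4, Col4a1, Col4a2 and Nid2 from old vehicle kept their sign and were not called. The same held for those of Col4a1, Col4a2, Lama4, Lamc1 and Nid2 from old BI01, while Col15a1 was still called (-2.13, adjusted p = 0.0134). Under that scaling the median difference of all genes moved from -0.01 to 0.28 against old vehicle and from -0.02 to 0.19 against old BI01. Of the 24 glycolysis genes none differed from old BI01 and 4 did from old vehicle, all lower in young: Ldha (-1.40, adjusted p = 0.0435), Gys1 (-1.23, adjusted p = 0.0421), Pkm (-1.03, adjusted p = 0.0478) and Gpi1 (-0.90, adjusted p = 0.0421), and none was called with library size alone. Of the 15 regulators 2 differed from old BI01 and 3 from old vehicle, lower in young, Perm1 (-3.34, adjusted p = 0.0239), Ppara (-1.95, adjusted p = 0.041) and Ppargc1a (-1.82, adjusted p = 0.0399), Ppara losing its call with library size alone.

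**Figure D5:**
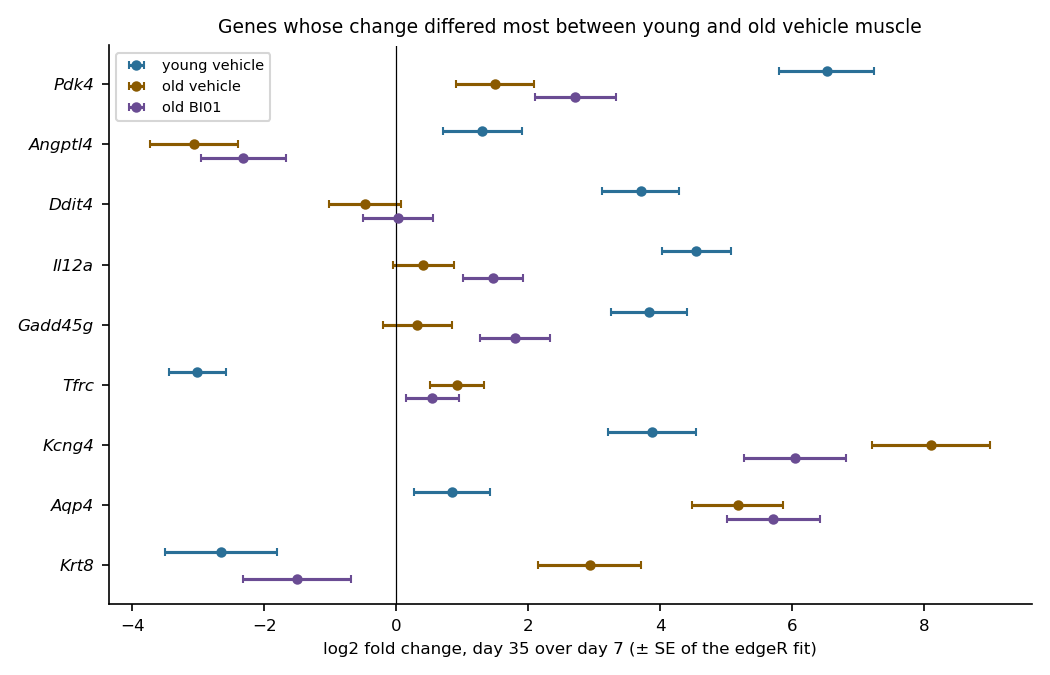
Log2 fold change at day 35 over day 7, with the SE of the edgeR fit as bars, in young vehicle, old vehicle and old BI01 muscle for 9 of the genes whose change differed most between young and old vehicle muscle. Pdk4, Angptl4, Ddit4, Il12a and Gadd45g lie further to the right in young muscle, and Krt8, Aqp4, Kcng4 and Tfrc further to the left.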

How the data were processed

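The series holds messenger RNA sequencing of tibialis anterior muscle, with RNA taken with a miRNeasy kit and sequenced at a company, per the labels' protocols. Submitters' processing notes name HISAT2 and the mouse build mm10. For the counting tool, annotation version and strandedness nothing is given in the sources used here, so genes that overlap or have close copies are uncertain. The authors deposited whole-number counts per gene for 32 libraries in 1 table, with coordinates and gene lengths; the table has 54532 genes, of which 17121 passed the filter, and young libraries held 15141390 to 24356966 counts. Column names gave each library its group but not its sample, so numbers in the text are those of the columns.

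The deposited counts were filtered with filterByExpr, scaled with TMM and fitted with edgeR 4.0.16 in R 4.3.3 (quasi-likelihood, robust) with 1 mean for each of the 8 groups of 4 libraries, so all groups share the estimate of the spread. Adjusted p-values are Benjamini-Hochberg values over 17121 genes, with the threshold for a call at 0.05. SE is the log2 fold change divided by the square root of F. Levels are CPM of TMM-scaled libraries, given as mean ± SD with n = 4 unless each library is listed. Named genes were the 10 largest changes each way among called protein-coding genes that averaged 5 CPM or more in either group and whose libraries did not overlap, predicted genes left out, the members of 6 isoform pairs, up to 4 genes of smallest p per list, and the 5 largest called differences each way between young and old. Some genes named by this rule are not reported here, though counts over lists include them. The comparison, the 44 lists and the named pairs were chosen with earlier results of these data known. Alternatives were other scalings (DESeq2 size factors, library size alone), other filters, DESeq2 1.42.0, limma 3.58.1 (voom), only the groups compared, and each of the 8 young libraries left out. Isoform shares within a library use counts per kb of gene length and an exact two-sided permutation test, and these shares and the form without length were chosen after seeing the data. On simulated counts for 16092 genes, the day 35 against day 7 comparison recovered 48% of genes changed 2-fold and 82% of those changed 4-fold, with 5 false calls. Only 100 genes were changed at each fold there, and all others had the same mean in every group. In the data 55.3% of genes were called, so these rates need not hold for them. Promoter sequences are from RefSeq (GRCm38.p6) and matched 511 of 709 list genes. Zero-count limits use 3 counts, and they and the 95% intervals cover counting error only. Within the 2 young groups, the 12 pairs of libraries differed by more than sampling noise (mean chi-square per gene from 17.6 to 101).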

Additional observations from a re-analysis of the deposited data

Results flagged for a closer look

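Among 318 sets of 4 libraries (named genes at day 7 or day 35, young muscle), 22 had 1 library far from the other 3, where chance gives about 1 in 20. Library 7 of day 7 stood highest in 6 of them. It had 26.1 CPM of Chrne, the adult acetylcholine receptor subunit, against at most 11.7 in the others, and 4319 CPM of cardiac actin Actc1, 174 of Chrnb1, 2900.2 of Pfkm, 91.6 of the clock gene Nr1d2 and 47.1 of Amd1. The same library was lowest in H2-DMa, an antigen presentation gene, at 8.44 CPM. In day 7 library 5 Arrdc2 was highest at 8.22 CPM, and in day 7 library 4 Rbfox2 was highest at 232 CPM and mt-Co2 lowest at 39.0 CPM.

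At day 35 most such values were near the limit of detection. Nrk and Tnn stood at 0.0646 CPM and Gzma at 0.258 CPM in library 1, Stra6l at 0.0532 CPM in library 2, Mmp8 at 0.217 CPM in library 3 and Ccl7 at 0.0784 CPM in library 4, each with no count in the other 3 libraries. Library 2 was also highest for Csf3r at 0.797 CPM and Col11a1 at 2.71 CPM and lowest for Adam12 at 0.0532 CPM. Library 4 was highest for Pmp22 at 14.8 CPM and lowest for the proteoglycan gene Bgn at 32.1 CPM, where the other 3 had at least 72.7 CPM. Library 3 was lowest for Tfb2m at 47.2 CPM.

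The change from day 7 to day 35 differed between young and old vehicle muscle by the interaction test, as a log2 difference of young minus old, for Pdk4 (5.03), Angptl4 (4.36), Ddit4 (4.18), Il12a (4.14) and Gadd45g (3.51) upward and for Krt8 (-5.59), Aqp4 (-4.33), Kcng4 (-4.23) and Tfrc (-3.93) downward. Against old muscle given BI01 it differed for Pdk4 (3.81), Ddit4 (3.67), Angptl4 (3.62), Car4 (3.24) and Il12a (3.08) upward and for Nrk (-5.27), Aqp4 (-4.87), Tfrc (-3.56) and Rtl1 (-3.40) downward. Both sets share the young libraries. Some of these calls were lost under other settings: Kcng4 against old vehicle under 8, and against BI01 Nrk under 12, Rtl1 under 10, Angptl4 under 7, Car4 under 6 and Pdk4 under 1 (without library 1 of day 35, adjusted p = 0.0529). The highest adjusted p (edgeR or limma) was 0.116 for Kcng4, 0.203 for Nrk, 0.216 for Rtl1, 0.0881 for Angptl4 and 0.0859 for Car4. Without library 1 of day 35 the Nrk difference was -7.06, and without library 5 of day 7 that of Car4 was 4.04.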

How the results depend on the processing

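The day 35 against day 7 comparison called 9464 genes, 8779 to 10298 under other settings and 8735 to 9497 with 1 young library left out. Against uninjured muscle 2691 were called, 1855 to 3352 under other settings and 1807 to 2838 with 1 library left out. Library size alone moved the share of higher calls from 44.9% to 78.6% there. Called differences from old vehicle muscle numbered 475, but 242 with no filter, 935 with DESeq2 and 155 to 539 with 1 library left out. Differences from old BI01 muscle numbered 240, but 140 with no filter, 587 with DESeq2, 416 with only the groups compared and 79 to 238 with 1 library left out.

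For the genes chosen by rule, 2570 values under alternatives kept their direction and call, 66 lost the call and 2 turned: Chrne (-0.18) and Acta1 (-0.37), with library size alone. That scaling also turned the medians of endothelium (-0.33), mitochondrial transcription factors (-0.29), p53 targets (-0.25), translation (-0.64) and polyamine genes (-0.60). DESeq2 size factors gave translation -0.0441 and polyamine genes -0.0179, DESeq2 -0.0443 and -0.0178, and only the groups compared gave translation -0.000163. B and plasma cells turned to 0.33 with limma voom and 0.32 with only the groups compared. With 1 library left out, medians ran from -0.34 to 0.23 for B and plasma cells, -0.63 to 0.14 for adipocytes, -0.0678 to 0.0397 for RNA-binding genes, -0.0506 to 0.10 for translation and -0.0516 to 0.13 for polyamine genes. The cause was not tested. Of the isoform shares, perinatal myosin (-5.87) and Tnnt2 (-2.73) moved when counts were not divided by length.

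Of 211 genes named with a called change between day 7 and day 35, 35 lost the call under 1 or more alternatives. In 13 this was with library size alone only: Adamts1, Akt2, Cldn5, Dkc1, Fabp4, Insr, Klf4, Mef2d, Nolc1, Nr4a1, Rbm24, Smad3 and Tfam. In 21 it was with some single young library left out: Alas2, Bop1, Cd79b, Cdkn2a, Comp, Dysf, Eef1a2, Igf1r, Igfbp6, Ighm, Kcnn3, Mmp8, Myh2, Myh4, Myl3, Rbm20, Six4, Srsf10, Sypl2, Ubtf and Zfp36. Mmp12 lost it with limma voom.

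The half-widths of 95% intervals had a median of 0.60 (log2), so many smaller changes may have been missed, though some were called, such as Bop1 (-0.44). No paired analysis was possible because the day 35 and day 7 columns share only number 4, so a replicate block was not run for that comparison or for its differences from old muscle. The day 35 and uninjured columns share the numbers 1 to 4, which no label ties to an animal or a batch, and a block on them was added after the data were seen. Deviations of same-numbered libraries from their group means correlated at 0.16, -0.0322, 0.15 and 0.16, and number 2 of day 35 correlated best with number 3 (0.13), so the numbers were not taken as pairs. With that replicate block, on only these 8 libraries, 2386 genes were called, and 5 of the 26 named genes called against uninjured muscle were not. Those 5 were Csrp3 (adjusted p = 0.167), Rian (0.0855), Ulk1 (0.0774), Igf2bp2 (0.0631) and Xirp1 (0.0629), all with the same sign as before.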
